A study of Mus musculus with 12 samples.

Results

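The interferon regulatory factors are a family of transcription factors that share a DNA-binding domain at the amino terminus and recognize GAAA-type elements in the promoters of interferon and interferon-stimulated genes. The 8 genes described here, Irf1, Irf2, Irf3, Irf4, Irf5, Irf7, Irf8 and Irf9, were chosen by name from the 17523 genes of the expression table, and all 8 were found and had enough reads to be tested. Irf3 and Irf7 are activated by innate sensors of nucleic acid and switch on type I interferon genes, Irf9 joins STAT2 downstream of the interferon receptors, Irf1 is an activator induced by interferon gamma, and Irf2 binds the same sites and often opposes it. Irf4, Irf5 and Irf8 are the members most tied to immune lineages. Irf4 is induced through the T cell receptor and is needed for effector T cell differentiation, Irf5 acts below Toll-like receptors in myeloid cells and B cells, and Irf8 is a lineage factor of dendritic cells and monocytes that is also found in B cells and activated T cells.

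RNA was sequenced from CD4+ T cells of the spleens of naïve Gr/fr mice (C57BL/6), in which the Csf2 allele makes GM-CSF together with iCre and BFP, and iCre switches on YFP permanently from the Rosa26 locus. YFP+ cells therefore are cells that make GM-CSF or made it at some earlier time, as far as Cre made from the Csf2 allele reports it, and all 4 groups carried the same alleles. Cells were sorted by FACS into naïve cells (CD62L+CD44-) and effector memory (TEM) cells (CD62L-CD44hi), and both were split by YFP, with 3 libraries in each of the 4 groups. The sort for sequencing used spleens of Gr/fr mice with n = 3, and which mouse each numbered library came from was not given in the sources used here. Gr/fr mice used to sort CD4+ T cells were 2 to 3 months old, with no separate age beside the sequencing.

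Values are normalized counts, which are reads on a gene divided by a size factor of the library. The 12 libraries held 40974124 to 57822269 reads on genes. Cd44 was 2831 ± 382 in YFP- naïve, 22014 ± 363 in YFP- TEM and 26861 ± 2268 normalized counts in YFP+ TEM cells (SD, n = 3 each), and Csf2 was 116 ± 52.0 in YFP+ TEM cells and at most 3.94 in every other library, in the direction of the labels. The T cell genes Cd3e and Cd4 were at 30224 normalized counts or more in every library. Markers of other cells were present too, and YFP+ naïve replicate 2 stood apart from the other naïve libraries, with a summed level of 9 macrophage and monocyte markers of 5064 normalized counts against 215 to 976 in the other 5.

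Irf8, Irf5 and Irf4 differed most between the sorted populations, and Irf1, an activator induced by interferon gamma, fell in TEM cells, as Irf9 did. The 300-base promoter windows of Irf8, Irf5, Irf4 and Irf1 are shown for that reason. They run from 250 bases before to 50 bases after a transcript start, on the plus strand of GRCm38.p6 (RefSeq), at chr8:120736108-120736407 for Irf8, chr6:29526375-29526674 for Irf5, chr13:30748983-30749282 for Irf4 and chr11:53769764-53770063 for Irf1. Capitals mark matches to GAS (TTCNNNGAA), an element of interferon gamma signalling.
Irf8: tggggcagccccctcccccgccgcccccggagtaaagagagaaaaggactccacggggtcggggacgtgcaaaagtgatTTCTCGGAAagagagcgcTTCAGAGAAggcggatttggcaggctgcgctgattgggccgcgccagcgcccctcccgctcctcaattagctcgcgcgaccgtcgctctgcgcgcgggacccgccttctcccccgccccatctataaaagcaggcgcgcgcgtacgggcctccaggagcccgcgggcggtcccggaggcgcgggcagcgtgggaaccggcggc
Irf5: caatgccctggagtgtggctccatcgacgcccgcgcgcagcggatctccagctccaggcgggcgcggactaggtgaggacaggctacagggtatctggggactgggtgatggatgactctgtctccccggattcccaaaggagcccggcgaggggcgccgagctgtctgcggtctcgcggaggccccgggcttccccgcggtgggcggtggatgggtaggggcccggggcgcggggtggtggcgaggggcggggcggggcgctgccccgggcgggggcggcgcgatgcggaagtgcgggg
Irf4: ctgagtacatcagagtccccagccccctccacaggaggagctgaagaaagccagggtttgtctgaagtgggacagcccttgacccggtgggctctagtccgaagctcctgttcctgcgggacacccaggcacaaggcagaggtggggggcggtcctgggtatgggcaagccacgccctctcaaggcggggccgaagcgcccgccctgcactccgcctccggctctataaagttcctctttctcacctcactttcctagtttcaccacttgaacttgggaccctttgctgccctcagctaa
Irf1: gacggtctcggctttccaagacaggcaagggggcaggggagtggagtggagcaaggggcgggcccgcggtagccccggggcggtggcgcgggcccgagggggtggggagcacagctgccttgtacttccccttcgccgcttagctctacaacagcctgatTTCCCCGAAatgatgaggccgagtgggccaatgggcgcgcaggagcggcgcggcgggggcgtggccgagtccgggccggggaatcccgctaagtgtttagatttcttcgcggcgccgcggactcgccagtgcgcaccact
The Irf8 window held 2 GAS matches, which began 171 and 153 bases before the start, and the Irf1 window held 1, which began 90 bases before it. A second RefSeq window of Irf8, of Irf1 and of Irf9, at another transcript start, held no match to any motif searched. The windows of Irf5 and Irf4 held none of the 4 motifs searched on both strands, which besides GAS were the interferon-stimulated response element ISRE (GAAANNGAAA), the composite element EICE of IRF and PU.1 (GGAANNGAAA) and AP-1 (TGANTCA). The Irf5 window began at 29526375, inside the annotated gene, whose first base is 29526130. Bases before that gene start were therefore not searched. Among the other members, the Irf2 window held a GAS match and an EICE match that overlapped an ISRE match, and the windows of Irf3, Irf7 and Irf9 held none. Of all 32851 promoter windows of this length, 8.30% held a GAS, 3.44% an ISRE, 2.72% an EICE and 7.81% an AP-1 match. A match is only a run of letters and shows no binding in these cells.

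The naïve cells held mostly the broadly expressed members, whereas TEM cells also held Irf4, Irf5 and Irf8. Levels of different genes are compared per kilobase of exon, because a longer transcript yields more reads. In YFP- naïve cells Irf1 was the highest at 3338 normalized counts per kilobase, then Irf2 (2953), Irf3 (2122), Irf9 (2114) and Irf7 (1347), and Irf8, Irf4 and Irf5 were at 145, 116 and 38.0. In YFP- TEM cells Irf2 (2708) and Irf1 (2282) led, followed by Irf3 (1728), Irf9 (1629), Irf8 (1628), Irf7 (1284) and Irf5 (1183). In YFP+ TEM cells Irf8 and Irf5 were at 435 and 404 normalized counts per kilobase, below Irf4 at 794. The place of Irf1 depends on the length used: over all 12 libraries it averaged 2766 per kilobase of all annotated exons and 4320 per kilobase of its longest transcript.

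As a share of the summed level of the 8 genes per kilobase, Irf8 made up 1.19% ± 0.172 in naïve cells without YFP, 1.29% ± 0.547 in those with it, 12.05% ± 3.64 in TEM cells without YFP and 3.95% ± 0.895 in those with it (SD, n = 3 each). The share of Irf5 was 0.318% ± 0.103, 0.514% ± 0.236, 8.75% ± 2.10 and 3.67% ± 0.740 in the same order, and that of Irf4 was 0.923% ± 0.400, 0.928% ± 0.468, 7.59% ± 2.47 and 7.01% ± 2.87. Thus the share of Irf4 was much the same with and without YFP in TEM cells, while those of Irf5 and Irf8 were lower with it. The sum itself was 12173 and 11695 normalized counts per kilobase in naïve cells without and with YFP, and 13459 and 11096 in TEM cells.

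**Figure D1:**
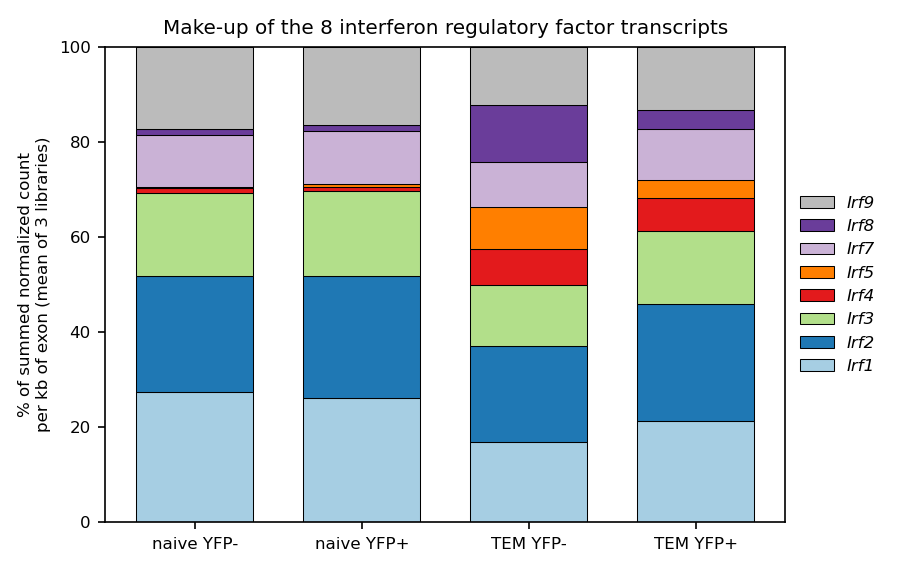
Share of each of the 8 genes in their summed normalized count per kilobase of exon (vertical axis, %), as the mean of 3 libraries in each of the 4 groups (horizontal axis). Irf4, Irf5 and Irf8 are thin bands in naïve cells, and Irf8 goes from 12.05% in YFP- to 3.95% in YFP+ TEM cells.

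To find which members differed between TEM cells with and without a history of GM-CSF, YFP+ were compared with YFP- TEM cells. Irf8 and Irf5 were both lower in YFP+ TEM cells, by 3.64-fold and 2.88-fold, and the other 6 members did not pass the test. Irf8 was at 6550, 3540 and 6686 normalized counts in YFP- TEM replicates 1, 2 and 3 and at 1477, 1228 and 1774 in YFP+ TEM cells. Every YFP+ library was below every YFP- library, and replicate 2 was the lowest in both groups. The ratio of YFP+ to YFP- was 0.226, 0.347 and 0.265 in replicates 1, 2 and 3.

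Irf5 was at 3248, 2251 and 3896 normalized counts in YFP- TEM replicates 1, 2 and 3 and at 1008, 931 and 1273 in YFP+ TEM cells. Again the groups did not overlap and replicate 2 was the lowest in each, and the YFP+ to YFP- ratios were 0.310, 0.414 and 0.327. Because RNA was measured in bulk, fewer cells that express a gene and less RNA per cell cannot be told apart.

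Differences were tested in limma on log2 of the normalized count plus 1 across 15587 genes, with p-values adjusted by Benjamini and Hochberg and a call at an adjusted p of 0.05 or less. Irf8 had a log2 fold change of -1.86 (SE 0.32, 95% interval -2.56 to -1.17, adjusted p = 0.0031, limma) and Irf5 one of -1.52 (SE 0.35, interval -2.28 to -0.76, adjusted p = 0.0179, limma). These were 2 of 8 members called, both lower, against 6.97% of all tested genes called (2.30% higher and 4.67% lower). The same 2 were the members whose groups did not overlap, against 25.0% of all tested genes (10.6% higher and 14.3% lower). An exact permutation test of a single gene with 3 libraries against 3 cannot go below a two-sided p of 0.10. The median log2 fold change was -0.12 over the 8 members and -0.01 over all tested genes.

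With the replicate number as a block, 1869 genes in place of 1087 were called in this comparison, and again 2 members. The Irf8 call held when each of the 6 TEM libraries was left out in turn. The Irf5 call did not hold without YFP- TEM replicate 1 (adjusted p = 0.0742, limma), YFP- TEM replicate 3 (0.103), YFP+ TEM replicate 1 (0.0675) or YFP+ TEM replicate 2 (0.0611), with its log2 fold change between -1.74 and -1.35. It was also missed narrowly by edgeR on the reads of 11 libraries (adjusted p = 0.0542) and by limma without a variance trend (adjusted p = 0.0508). Irf5 shares part of its span with Tnpo3 on the other strand, and the strand setting of the counting was not given in the sources used here. Tnpo3, a nuclear import receptor, was at 4626 to 4707 normalized counts in YFP- and 4647 to 5259 in YFP+ TEM cells, with a log2 fold change of 0.09 (interval -0.07 to 0.24). Irf8 overlaps Gm20388 on the same strand in the GENCODE annotation, and the part of Gm20388 in the Irf8 counts was not tested.

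Irf4, the member most tied to T cell activation, was at 3529, 6473 and 4553 normalized counts in YFP- TEM replicates 1, 2 and 3 and at 2396, 5876 and 3070 in YFP+ TEM cells. The groups overlapped, replicate 2 was the highest in each, and the YFP+ to YFP- ratios were 0.679, 0.908 and 0.674. The log2 fold change was -0.42 with an interval of -1.41 to 0.56 (adjusted p = 0.769, limma). With the replicate number as a block the interval was -0.82 to -0.02, and Irf4 was not called there either (adjusted p = 0.182, limma).

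The members of the general interferon system were close between both TEM groups. Irf1 was at 7581 to 7671 normalized counts without YFP and 7380 to 8239 with it (log2 fold change 0.05, interval -0.19 to 0.29), and Irf2 at 6465 to 7138 and 6382 to 7532 (log2 fold change -0.0014, interval -0.33 to 0.33). Irf3 was at 3332 to 4090 without and 2969 to 4264 with YFP (log2 fold change -0.03, interval -0.44 to 0.37). Irf7 was at 2818 to 3308 and 2584 to 3439 (-0.10, interval -0.53 to 0.33), and Irf9 at 4778 to 5432 and 4266 to 5143 (-0.14, interval -0.44 to 0.15). None of these 5 intervals reached a change of 1 on the log2 scale in either direction. The YFP+ to YFP- ratios of Irf9 were 0.893, 0.947 and 0.877 in replicates 1, 2 and 3. With the replicate number as a block its interval was -0.28 to -0.0048, and Irf9 was not called there either (adjusted p = 0.190, limma).

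**Figure D2:**
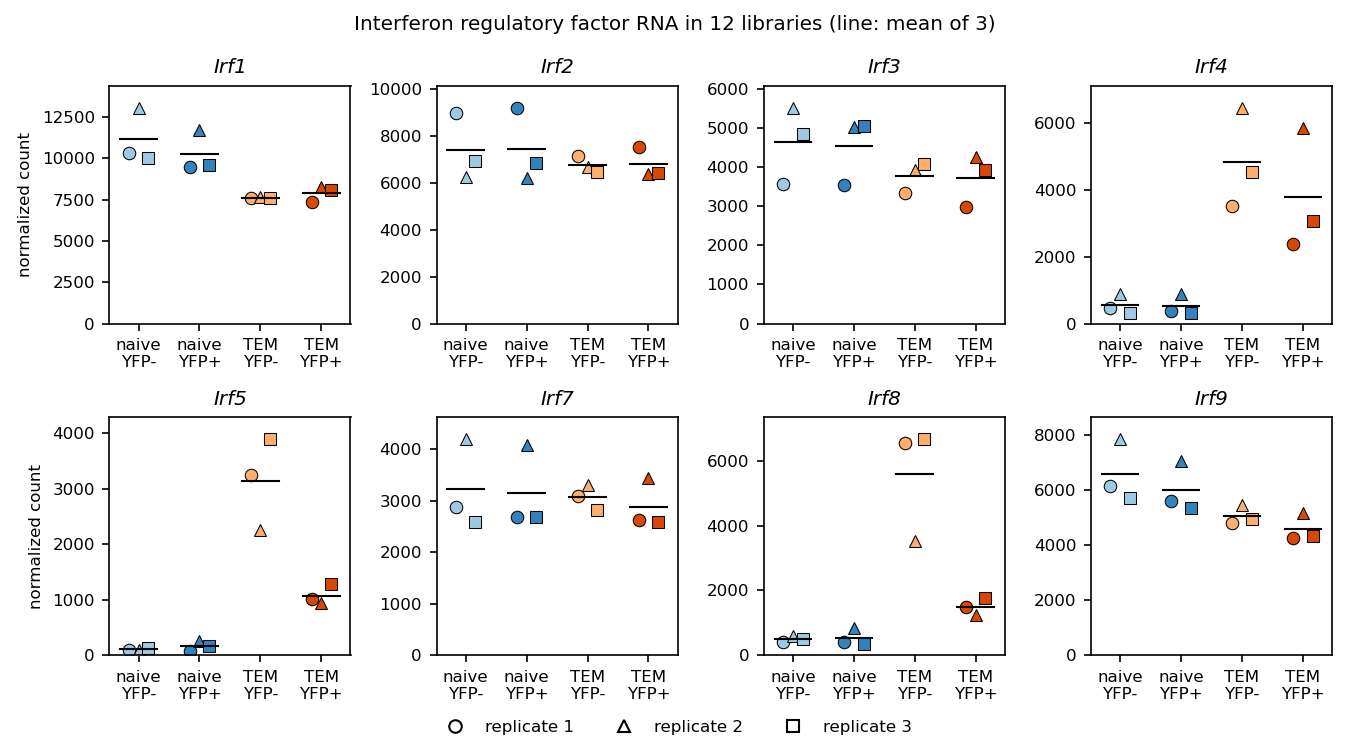
Normalized count (vertical axis, from 0, its range differing between panels) of each of the 8 genes in the 12 libraries by group (horizontal axis), with the replicate number as the symbol and the mean of 3 as a line. Irf5 and Irf8 are highest in YFP- TEM cells with no overlap with YFP+ TEM cells, and Irf4 is high in both TEM groups.

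Most genes of dendritic cells moved in the same direction as Irf8 and Irf5. Of 8 conventional dendritic cell markers, 7 were called lower in YFP+ TEM cells, against 4.67% of all tested genes. The 8 summed to 13506 to 29828 normalized counts in YFP- and 867 to 2323 in YFP+ TEM cells. Flt3, the receptor of a dendritic cell growth factor, was at 2573, 1660 and 3548 normalized counts in YFP- TEM replicates 1, 2 and 3 and at 167, 55.9 and 182 in YFP+ TEM cells. As for Irf8 and Irf5, replicate 2 was the lowest of each TEM group for Flt3 and for the sum. None of the 8 markers was at 0 in any TEM library, and in the naïve libraries their sum was 113 to 1058.

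Of 10 plasmacytoid dendritic cell markers, 7 were called lower and 0 higher in YFP+ TEM cells, against 4.67% and 2.30% of all tested genes. The 10 summed to 16472 to 23385 normalized counts in YFP- and 11595 to 12362 in YFP+ TEM cells. Their sum was 8496 to 9572 in YFP- and 9064 to 9506 in YFP+ naïve cells, where Pacsin1 alone was at 5422 to 6744. Ccr9 went the other way without a call, at 1209, 497 and 1218 in YFP- and at 2826, 1096 and 3405 in YFP+ TEM cells. Siglech, a defining receptor of plasmacytoid cells, was at 3367, 1412 and 3263 in YFP- and at 118, 26.9 and 55.1 in YFP+ TEM cells, and Klk1, another gene of these cells, was at 528 to 1150 and 7.25 to 46.5. In naïve cells Siglech was at 0 in 4 of 6 libraries and at most 16.7, and Klk1 was at 0 in all 3 YFP- libraries. Irf8 was at 843 normalized counts in YFP+ naïve replicate 2, where Siglech was at 16.7, and at 353 to 598 in the other 5 naïve libraries. That library also had the highest naïve sums of conventional dendritic cell markers (1058) and of macrophage and monocyte markers (5064). The part of any of these cells in its Irf8 level was not tested.

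Markers of other cells moved in both directions between YFP+ and YFP- TEM cells, where 4.67% of all tested genes were called lower and 2.30% higher. Of 9 macrophage and monocyte markers, 2 were called lower in YFP+ TEM cells, Adgre1 and Cd68, and their summed level was 6546 to 12074 normalized counts in YFP- and 2464 to 5079 in YFP+ TEM cells, with a median log2 fold change of 1.31 over the 9. C1qa, a complement gene of macrophages, was on the contrary at 111 to 179 in YFP- and 249 to 619 in YFP+ TEM cells without passing the test. Of 8 B cell markers, which belong to another cell type that uses Irf4, Irf5 and Irf8, 2 were called higher (Cd79a and Ebf1), and the median log2 fold change was 1.69. Their sum was 2294 to 3335 in YFP- and 1478 to 2044 in YFP+ TEM cells, most of it Cd22 (1842 to 2763 and 890 to 1124), and the other 7 summed to 452 to 572 and 372 to 920. Of 5 natural killer cell markers 3 were called higher (Ncr1, Klrb1c and Klre1), with a sum of 619 to 844 in YFP- and 1450 to 2179 in YFP+ TEM cells and a median log2 fold change of 3.03. The 4 neutrophil markers measured summed to 8.20 to 34.6 and 63.2 to 251, without a call. Of 5 regulatory T cell markers 2 were called lower (Foxp3 and Ikzf4). Il2ra went the other way without a call, at 3824 to 6136 in YFP- and 5136 to 9195 in YFP+ TEM cells. Of the 8 T cell markers and the 4 plasma cell markers measured none was called. The T cell markers summed to 243514 to 276113 in YFP- and 284526 to 303012 in YFP+ TEM cells. Of the 8, 7 had a log2 fold change above 0, and the median was 0.20. The part of the cells that these lists mark in the lower Irf5 and Irf8 was not tested.

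**Figure D3:**
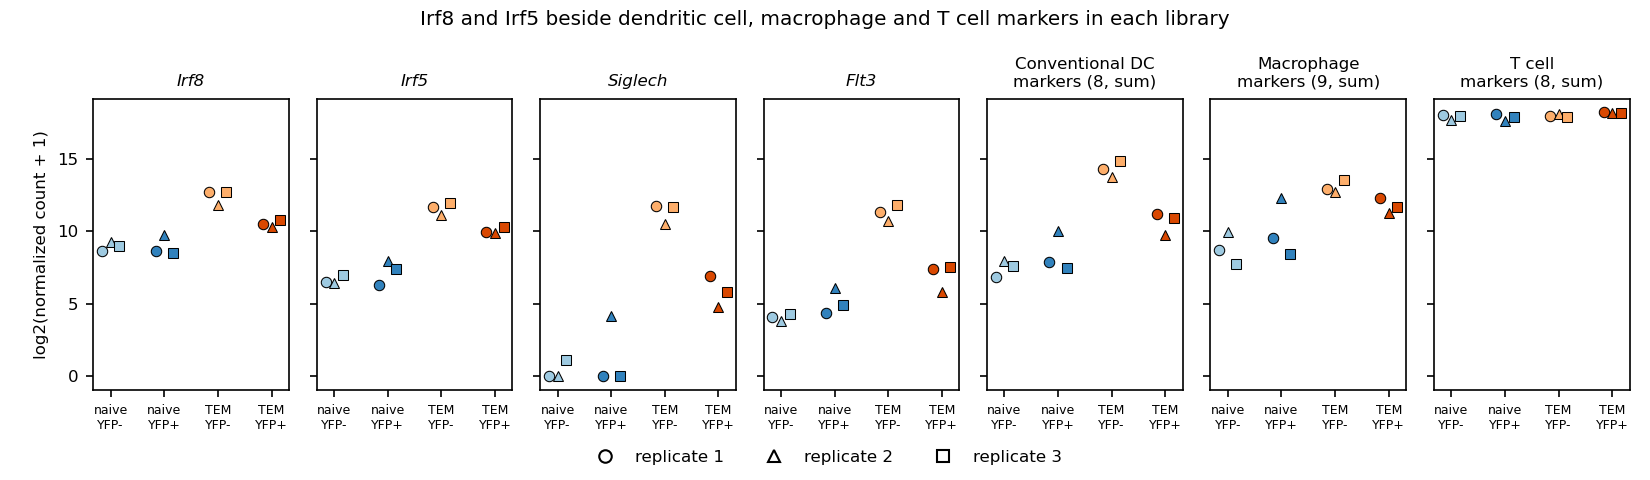
Log2 of the normalized count plus 1 (vertical axis) of Irf8, Irf5, Siglech and Flt3 and of the summed conventional dendritic cell (DC), macrophage and T cell markers in each library by group (horizontal axis), with the replicate number as the symbol. Siglech falls from 1412 to 3367 normalized counts in YFP- to 26.9 to 118 in YFP+ TEM cells. The T cell sum is 243514 to 276113 in YFP- and 284526 to 303012 in YFP+ TEM cells, and 198538 or more in all 12 libraries. YFP+ naïve replicate 2 lies above the other naïve libraries for all but the T cell sum.

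In naïve cells, YFP made no detectable difference to any of the 8 genes. None was called by limma, at an adjusted or an unadjusted p of 0.05, against 0.00642% of all tested genes called (1 gene) while 518 genes had an unadjusted p up to 0.05. No member had groups without overlap, against 5.38% of all tested genes (3.16% higher and 2.21% lower). The recovered reads gave 0 members called in edgeR and 0 in DESeq2 as well. The median log2 fold change was -0.03 over the 8 members and 0.01 over all tested genes.

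The widest values among naïve cells were those of the low members. Irf5 was at 89.8, 83.8 and 128 normalized counts in YFP- naïve replicates 1, 2 and 3 and at 76.7, 244 and 165 in YFP+ naïve cells, with a log2 fold change of 0.56 (interval -0.20 to 1.32). Irf8 was at 400, 598 and 498 without and 392, 843 and 353 with YFP, with a log2 fold change of -0.01 (interval -0.71 to 0.69). The highest value of both genes in naïve cells was that of YFP+ naïve replicate 2, the library with 5064 normalized counts of macrophage and monocyte markers, and its part in these values was not tested. Irf4 was at 454, 887 and 314 in YFP- and 385, 893 and 316 in YFP+ naïve cells, so that replicates of the same number were closer than replicates of the same group. For the other 5 members the log2 fold change lay between -0.13 and 0.0033, with intervals from -0.46 to 0.40 at the widest.

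The YFP+ to YFP- log2 fold change differed between TEM and naïve cells for Irf5 (-1.52 and 0.56) and Irf8 (-1.86 and -0.01), in a test that uses the same 12 libraries as both YFP comparisons. The difference of the 2 log2 fold changes was -2.08 for Irf5 (SE 0.49, interval -3.15 to -1.01, adjusted p = 0.0379, limma) and -1.85 for Irf8 (SE 0.45, interval -2.84 to -0.87, adjusted p = 0.0439, limma). These were 2 of 8 members called, both lower, against 3.55% of all tested genes called (0.828% higher and 2.73% lower). With the replicate number as a block, 890 genes in place of 554 were called, and again 2 members. For Irf4 the difference was -0.35 with an interval of -1.74 to 1.04, and for the other 5 members it lay between -0.07 and 0.17.

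Both calls of this difference were near the threshold and depended on single libraries. The Irf5 call (limma) was lost without YFP- naïve replicate 1 (adjusted p = 0.0918) or 2 (0.0827), YFP+ naïve replicate 2 (0.0581) or 3 (0.0773), YFP- TEM replicate 1 (0.105) or 3 (0.125), and YFP+ TEM replicate 1 (0.0901), 2 (0.0808) or 3 (0.0604). The Irf8 call (limma) was lost without YFP- naïve replicate 1 (adjusted p = 0.113), 2 (0.0522) or 3 (0.0942), YFP- TEM replicate 1 (0.126) or 3 (0.137), and YFP+ TEM replicate 1 (0.0939), 2 (0.0949) or 3 (0.0630). The difference itself stayed between -2.54 and -1.71 for Irf5 and between -2.15 and -1.46 for Irf8 in these fits.

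The step from naïve to TEM cells divided the family into 3 members that rose, 2 that fell slightly and 3 that did not pass the test. Without YFP, Irf5 was 30.6-fold, Irf8 10.9-fold and Irf4 9.35-fold higher in TEM than in naïve cells, with log2 fold changes of 4.94 (SE 0.35), 3.45 (SE 0.32) and 3.22 (SE 0.45). With YFP, Irf4 was 7.34-fold, Irf5 7.24-fold and Irf8 3.02-fold higher, with log2 fold changes of 2.88 (SE 0.45), 2.86 (SE 0.35) and 1.59 (SE 0.32). The largest of these 6 adjusted p-values was 0.0016 (limma, Irf8 with YFP), and all 6 held without any 1 of the libraries compared. Every TEM library was above every naïve library of the same YFP status in all 3 genes. Dendritic cell markers were called higher in the same comparisons too, against 29.9% of all tested genes without YFP and 24.7% with it. Of 8 conventional markers these were 8 without YFP and 5 with it, and of 10 plasmacytoid markers 9 and 5. With YFP, 2 plasmacytoid markers were called lower. The part of dendritic cells in the rise of Irf5 and Irf8 was not tested.

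The order of the 4 groups differed between the members that rose. For Irf4 both TEM groups overlapped with each other and stood above both naïve groups, which overlapped as well. For Irf5 and Irf8 the YFP- TEM group stood above the YFP+ TEM group, and this above both naïve groups, without overlap at either step. By replicate number, the TEM to naïve ratio of Irf8 was 16.4, 5.92 and 13.4 without YFP and 3.77, 1.46 and 5.03 with it, so that replicate 2 had the smallest step in both. For Irf5 it was 36.2, 26.9 and 30.5 without YFP and 13.1, 3.82 and 7.73 with it.

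Irf1 and Irf9 were lower in TEM cells. Irf1 was at 10335, 13068 and 10017 normalized counts in YFP- naïve replicates 1, 2 and 3, at 9480, 11741 and 9573 in those with YFP, at 7581, 7671 and 7589 in YFP- TEM and at 7380, 8239 and 8101 in YFP+ TEM cells. Its log2 fold change was -0.54 without YFP (SE 0.11, adjusted p = 0.0015, limma) and -0.37 with YFP (SE 0.11, adjusted p = 0.0178, limma). Irf9 was at 6123, 7842 and 5707 in YFP- naïve cells, at 5610, 7042 and 5346 in those with YFP, at 4778, 5432 and 4948 in YFP- TEM and at 4266, 5143 and 4337 in YFP+ TEM cells. Its log2 fold change was -0.36 without YFP (SE 0.13, adjusted p = 0.0384, limma) and -0.38 with YFP (SE 0.13, adjusted p = 0.0364, limma).

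For both genes the TEM libraries lay below all naïve libraries of the same YFP status. With YFP, the Irf1 call was lost without YFP+ naïve replicate 2 (adjusted p = 0.0708, limma) and without YFP+ TEM replicate 1 (0.0665). The Irf9 call was lost with YFP in the same 2 cases (0.139 and 0.112) and without YFP+ TEM replicate 3 (0.106), and without YFP it was lost when YFP- naïve replicate 2 (0.164), YFP- TEM replicate 1 (0.112) or YFP- TEM replicate 3 (0.0929) was left out. With YFP, edgeR and quantile normalization also left both genes uncalled. Over all 20 alternatives, which include a fold threshold, the Irf9 call was lost under 6 without and 9 with YFP. For Irf1 these were 1 and 5. The Irf1 call without YFP held without any 1 of the libraries compared.

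Irf2, Irf3 and Irf7 did not pass the test in either comparison. Irf2, with 6211 to 9190 normalized counts in naïve and 6382 to 7532 in TEM libraries, had log2 fold changes of -0.11 without and -0.11 with YFP. Irf7, with 2587 to 4201 in naïve and 2584 to 3439 in TEM libraries, had -0.04 and -0.11. Irf3 was at 3569, 5523 and 4844 in YFP- naïve cells, at 3547, 5034 and 5051 in those with YFP, at 3332, 3924 and 4090 in YFP- TEM and at 2969, 4264 and 3933 in YFP+ TEM cells. Its TEM to naïve ratio was below 1 in all 6 pairs of the same number (0.710 to 0.933), and replicate 1 was the lowest of every group. Its log2 fold change was -0.28 without YFP (adjusted p = 0.239, limma) and -0.29 with YFP (adjusted p = 0.247, limma), and with the replicate number as a block Irf3 was called without YFP (adjusted p = 0.0059, limma). Irf3 overlaps Bcl2l12 on the other strand, which was at 592 to 908 normalized counts in the YFP- naïve and YFP- TEM libraries. From naïve to TEM cells Bcl2l12 had a log2 fold change of -0.18 without YFP (interval -0.52 to 0.17). With YFP it was -0.39 (interval -0.73 to -0.05, adjusted p = 0.0647, limma). The part of Bcl2l12 in the Irf3 counts was not tested.

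Thus 5 of 8 members were called without YFP, 3 higher and 2 lower, against 49.8% of all tested genes called (29.9% higher and 19.9% lower). With YFP it was the same 5 in the same directions, against 41.4% of all tested genes (24.7% higher and 16.7% lower). The 5 called members were also those whose groups did not overlap, against 59.0% of tested genes without YFP (33.9% higher and 25.2% lower) and 48.7% with YFP (27.4% higher and 21.3% lower). The number of members called is therefore near the background of comparisons in which much of the transcriptome differed. The median log2 fold change over the 8 members was -0.07 without and -0.11 with YFP, beside 0.05 and 0.03 over all tested genes.

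**Figure D4:**
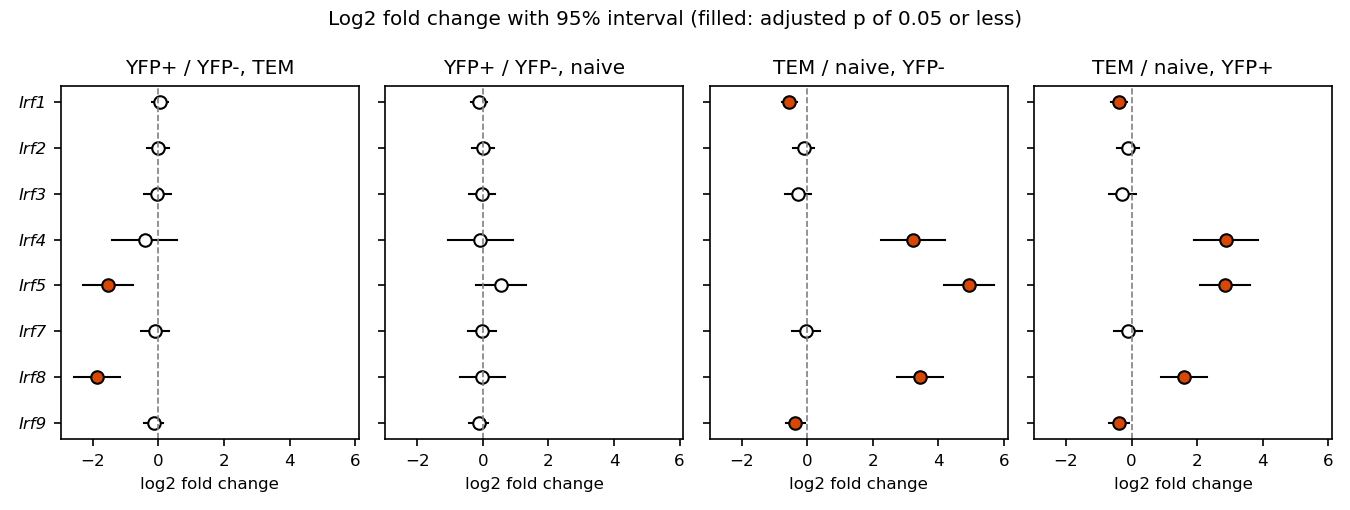
Log2 fold change (horizontal axis) with its 95% interval for each of the 8 genes (vertical axis) in 4 comparisons, filled where the adjusted p was 0.05 or less. Irf5 and Irf8 lie left of 0 in TEM cells with YFP against without, no gene is filled in naïve cells, and Irf4, Irf5 and Irf8 lie far to the right in TEM against naïve cells.

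Among the proteins that act on DNA together with interferon regulatory factors, Spi1, Spib and Batf3 were lower in YFP+ TEM cells. Of 11 partner genes tested, 3 were called lower and 0 higher, against 4.67% and 2.30% of all tested genes. The median log2 fold change was -0.06 over the 11, beside -0.01 over all tested genes. Spi1, which encodes PU.1, the partner of Irf4 and Irf8 on EICE sites, was at 2780, 2072 and 4003 normalized counts in YFP- TEM replicates 1, 2 and 3 and at 355, 132 and 242 in YFP+ TEM cells (log2 fold change -3.66, SE 0.46). Spib, its close relative, was at 565 to 1146 and 68.3 to 114 (log2 fold change -3.22). Batf3, an AP-1 factor needed for a class of conventional dendritic cells, was at 124 to 287 and 10.4 to 28.5 (-3.19). In the naïve libraries Spi1 was at 41.5 to 205, Spib at 65.5 to 250 and Batf3 at 0 to 8.37 normalized counts. The part of dendritic cells in the values of Spi1, Spib and Batf3 was not tested. Batf, the AP-1 partner of Irf4 in helper T cells, was at 2565 to 3717 without and 2147 to 3611 with YFP and was not called.

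Among 16 sensors and kinases upstream of Irf3, Irf5 and Irf7, 1 was called lower and 1 higher with YFP in TEM cells. Of all tested genes, 4.67% were called lower and 2.30% higher there. Tlr9, the sensor of unmethylated DNA that signals to Irf5 and Irf7, was at 1662, 1140 and 2733 normalized counts in YFP- and at 209, 207 and 179 in YFP+ TEM cells (log2 fold change -3.12, SE 0.41). Ddx58, which encodes the RNA sensor RIG-I, was at 4447, 4494 and 4682 in YFP- and at 5636, 5272 and 5999 in YFP+ TEM cells (log2 fold change 0.31, SE 0.07). The median of these 16 genes was -0.10.

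Of 8 interferon receptor and kinase genes tested, only Ifngr2 was called, and it was lower, beside 4.67% of all tested genes called lower. This chain of the interferon gamma receptor, which lies upstream of Irf1, was at 1413, 918 and 1813 normalized counts in YFP- and at 640, 351 and 524 in YFP+ TEM cells (log2 fold change -1.44, SE 0.27), and at 3389 or more in every naïve library. From naïve to TEM cells, 7 of these 8 genes were called both without and with YFP, 4 higher and 3 lower in each. Of all tested genes, 49.8% were called without YFP and 41.4% with it.

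The target genes of the family passed the test between TEM cells with and without YFP in 1 of 21 and 2 of 20 cases, near the 6.97% of all tested genes. Of 21 type I interferon response genes, 0 were called higher and 1 lower with YFP in TEM cells (Oas2, an RNA-activated synthetase, 287 to 422 against 69.4 to 161 normalized counts, log2 fold change -1.76), with a median log2 fold change of -0.15. Of 20 interferon gamma response genes, 1 was called higher (Socs1, an inhibitor of cytokine signalling, log2 fold change 0.51) and 1 lower (Ciita, the activator of MHC class II genes, log2 fold change -3.80), with a median of 0.16. Ciita, which antigen-presenting cells express at high levels, was at 3943, 3783 and 8560 in YFP- and at 400, 227 and 521 in YFP+ TEM cells. In naïve cells no gene of these lists was called with YFP.

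From naïve to TEM cells without YFP, 7 type I interferon response genes were called higher and 4 lower, and with YFP again 7 and 4. These were 11 of 21 genes in each comparison, against 49.8% of all tested genes called without YFP and 41.4% with it. Of the interferon gamma response genes, 4 were called higher and 3 lower without YFP, and 5 and 2 with YFP, which was 7 of 20 in each. Of 9 genes tied to Irf4 in helper and regulatory T cells (Prdm1, Il10, Il21, Bcl6, Maf, Icos, Ccr8, Ctla4 and Tigit), all 9 were called higher in TEM cells both without and with YFP, as Irf4 was, with median log2 fold changes of 4.59 and 4.23. Of all tested genes, 29.9% were called higher without YFP and 24.7% with it. None of these 9 was called between YFP+ and YFP- TEM cells, where Irf4 was not called either, and their median was -0.19. The list was drawn up from known T cell biology with results of these data in view and is no independent support.

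**Figure D5:**
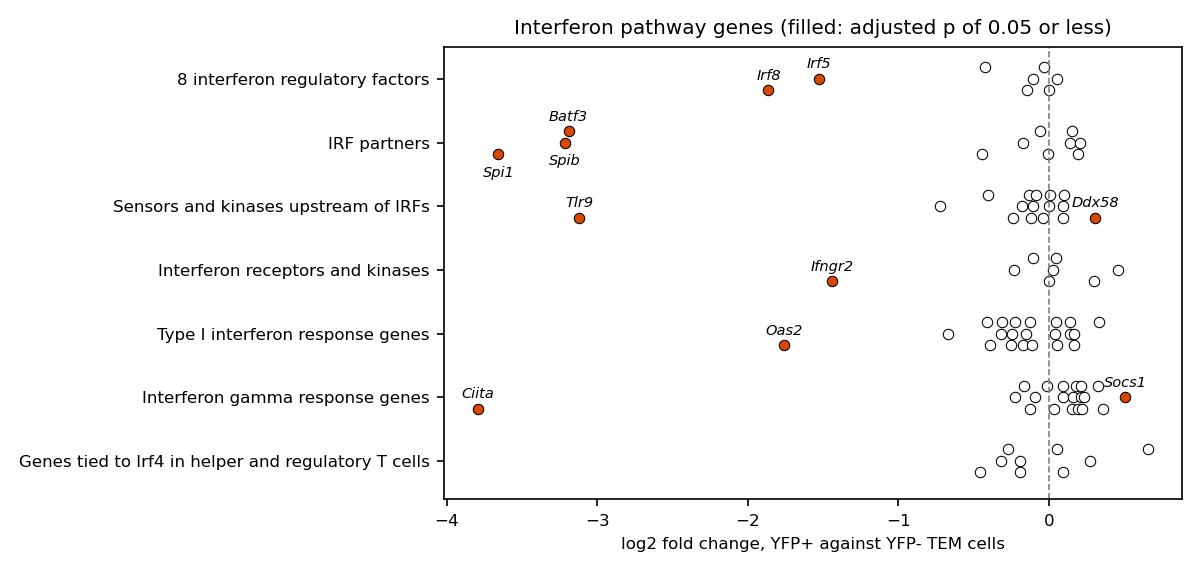
Log2 fold change of YFP+ against YFP- TEM cells (horizontal axis) for each tested gene of the family, of 5 interferon pathway lists and of a list tied to Irf4 (vertical axis), with genes at an adjusted p of 0.05 or less filled and named. Most genes lie around 0, and Irf5, Irf8, Spi1, Spib, Batf3, Tlr9, Ciita, Ifngr2 and Oas2 lie at -1.44 or below.

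The genes whose pattern was most like that of a member are given as the 3 highest Pearson correlations of the log2 values over the 12 libraries, among the 11692 named genes that averaged 50 normalized counts or more. The 12 libraries share 4 group means, and these coefficients are a description only. For Irf8 they were Swap70 (r = 0.992), Lyn (0.990) and Snx8 (0.990), and for Irf5 they were Lrrk1 (0.998), Rubcnl (0.991) and Adap1 (0.991). Lyn, a Src-family kinase of B cells and myeloid cells, averaged 119 and 226 normalized counts in naïve cells without and with YFP, and 5396 and 768 in TEM cells. Lrrk1, a kinase, averaged 36.7, 72.8, 2369 and 579 in the same order. Both are highest in YFP- TEM cells, as Irf8 and Irf5 are.

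The genes closest to Irf4 were Pkd2 (r = 0.987), 1700019D03Rik (0.985) and Abcb10 (0.985). Pkd2, a cation channel subunit, averaged 1.80 and 4.26 normalized counts in YFP- and YFP+ naïve cells and 108 and 143 in YFP- and YFP+ TEM cells, high in both TEM groups as Irf4 is. For the broadly expressed members the closest genes were Trim12a for Irf1 (r = 0.980), Suz12 for Irf2 (0.961), Fbxl4 for Irf3 (0.973), Ermard for Irf7 (0.972) and Cenpt for Irf9 (0.964). Within the family, Irf5 and Irf8 had r = 0.955, Irf4 and Irf5 0.902, Irf4 and Irf8 0.865, and Irf1 and Irf9 0.919.

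The members also varied by replicate number. Irf1, Irf4, Irf7 and Irf9 were highest in replicate 2 of all 4 groups, and Irf2 was highest in replicate 1 of all 4. Irf4 showed this most, with replicate 2 at 887 against 314 and 454 normalized counts in YFP- naïve cells and at 6473 against 3529 and 4553 in YFP- TEM cells. Without the 4 libraries numbered 2, an alternative chosen after seeing the data, Irf5 and Irf8 were both still called lower in YFP+ TEM cells (adjusted p = 0.0254 and 2.8e-04, limma).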

How the data were processed

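Total RNA of FACS-sorted spleen CD4+ T cells was sequenced on an Illumina HiSeq2500 after a TruSeq Stranded Total RNA preparation. Per the study's methods and the labels, the authors mapped reads to mm10 with DRAGEN, counted them on genes with Rsubread and normalized them with DESeq2. The annotation, the strand setting and the tool versions were not given in the sources used here. The deposited table holds a signal, the normalized count (reads divided by the library's size factor), for 17523 genes in 12 libraries, and 0 columns were left unused. Genes were named by Entrez identifier from RefSeq on GRCm38.p6 (16749 matched, 774 did not).

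Whole reads were recovered for 100% of values (tolerance 1e-06 of a read), which gave each library between 40974124 and 57822269 (median 44929387). The column of YFP+ TEM replicate 1 did not pass an automatic check of that recovery, so edgeR and DESeq2 were run on 11 libraries. The 10 most abundant genes held 5.29 to 7.75% of the reads.

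Log2 of the normalized count plus 1 was modelled by group with limma 3.58.1 under R 4.3.3 (eBayes with a trend). The 15587 genes that reached 5 normalized counts in 3 or more libraries entered, and the Benjamini-Hochberg adjustment ran over all of them. This test was used because the table holds normalized values. The 8 members, the gene lists and the tests were chosen with earlier results of these data known. Named besides the members are the 3 genes most correlated with each, up to 2 increases and 2 decreases per pathway list that passed in TEM cells, marker genes, Cd44 and Csf2 as a check, and overlapping genes. Lyn, Lrrk1, Pkd2, Batf, Batf3 and C1qa were picked for a closer description after their values were seen. Of the marker genes, Ly6g and Tnfrsf17 were not analysed here, and Batf2 and Ifnlr1 of the pathway lists were below the filter. A pair of genes of the pathway lists is not reported here. Exon lengths came from protein-coding transcripts of GENCODE M21 and promoter windows from RefSeq. The script was tested on simulated data.

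Replicate numbers were checked as pairs by correlating deviations from the group means. Libraries of the same number had coefficients of 0.18 to 0.356 between both TEM groups, 0.306 to 0.491 between both naïve groups, 0.137 to 0.232 between YFP- TEM and YFP- naïve cells and -0.020 to 0.204 between YFP+ TEM and YFP+ naïve cells. All but the last were over 0.1 in each of 3 pairs. Libraries of different number had coefficients of -0.297 to -0.036, -0.351 to 0.018, -0.155 to -0.019 and -0.167 to 0.078 in the same order. The main test had no replicate term, and the block was an alternative. Whether a number marks a mouse was not given in the sources used here. Alternatives were 0.1 or 5 as the value added, another filter (none, or an average of 10 and above), quantile or TMM normalization, no variance trend, only the libraries compared, the replicate block, edgeR 4.0.16, DESeq2 1.42.0 with and without the block, a fold threshold, leaving out each library and, added later, leaving out all libraries numbered 2.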

Additional observations from a re-analysis of the deposited data

Results flagged for a closer look

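The difference between the YFP effect in TEM cells and that in naïve cells was tested as a term of its own, and 2 of the 8 genes passed. For Irf5 the log2 fold change with YFP was -1.52 in TEM and 0.56 in naïve cells, a difference of -2.08 (adjusted p = 0.0379, limma), with YFP+ below YFP- in 3 of 3 replicate numbers in TEM cells and in 1 of 3 in naïve cells. For Irf8 it was -1.86 in TEM and -0.01 in naïve cells, a difference of -1.85 (adjusted p = 0.0439, limma), with YFP+ below YFP- in 3 of 3 numbers in TEM and in 2 of 3 in naïve cells. In the same test 7 of 8 conventional dendritic cell markers were called lower and 0 higher. Of 10 plasmacytoid dendritic cell markers, 7 were called lower and 1 higher. Of all tested genes, 2.73% were called lower and 0.828% higher. The part of these markers in the values of Irf5 and Irf8 was not tested.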

How the results depend on the processing

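The number of members called was within 1.5 times its first value under 14 of 20 alternatives in YFP+ against YFP- TEM cells, under 19 and 15 of 20 in TEM against naïve cells without and with YFP, and under 10 of 25 for the difference between TEM and naïve cells. In YFP+ against YFP- TEM cells it went from 2 to 1 without a variance trend and with edgeR, and it was 1 to 2 without single libraries. For the difference between TEM and naïve cells it went from 2 to 0 with 0.1 added before the log, without a variance trend and with edgeR, to 1 with DESeq2 and the replicate block and to 1 without the libraries numbered 2, and it was 0 to 2 without single libraries. In TEM against naïve cells it went from 5 to 3 with a log2 fold change of at least 1, both without and with YFP, and with YFP also to 3 with quantile normalization and with edgeR and 3 to 5 without single libraries. In naïve cells it stayed at 0. The causes were not tested. Over all genes, YFP+ against YFP- TEM cells gave 1087 calls, 1869 with the replicate block, 691 with edgeR and 1676 with DESeq2 and the block, and naïve cells gave 1, 6, 0 and 59. The difference gave 554, 890, 335 and 1004 calls.

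The replicate block changed the call of Irf3 alone among the members, in TEM against naïve cells without YFP (adjusted p = 0.0059, limma) and with YFP (0.0063, where the numbers are not shown to pair the libraries), so that 6 in place of 5 members were called in each, with limma and with DESeq2. It left 2, 0 and 2 members called in the other 3 limma comparisons.

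Some log2 fold changes near 0 that were never called changed sign. In YFP+ against YFP- TEM cells these were Irf2 (0.027 with TMM factors, 0.031 without the libraries numbered 2, 0.038 with DESeq2 and the block, -0.081 to 0.039 without single libraries) and Irf3 (0.11 with edgeR, 0.12 with DESeq2, -0.14 to 0.12 without single libraries). In naïve cells it was Irf8 (0.0070 with quantile normalization, 0.085 with edgeR, 0.086 with DESeq2, 0.073 with DESeq2 and the block, -0.40 to 0.22 without single libraries). In TEM against naïve cells, without single libraries, Irf2 was -0.22 to 0.039 without and -0.23 to 0.052 with YFP, and Irf7 -0.18 to 0.17 without and -0.24 to 0.091 with YFP, and Irf7 was 0.11 without YFP and without the libraries numbered 2. The other 6 members changed sign in 17 of 120 values in naïve cells and in 34 of 150 values of the difference, with 0 calls. The lowest counts were those of Irf5 in naïve cells, at 76.7 to 244 normalized counts.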
